A study of Mus musculus with 4 samples.

Results

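ETS factors are transcription factors that share a DNA-binding domain, the ETS domain, which recognises DNA around a GGAA core. The 10 described here, of 19938 genes on the array, were taken as every probe set annotated to exactly one of Etv1, Etv4 and Etv5 (the PEA3 group), Elf3, Elf5, Ehf and Spdef (ETS factors of epithelium), Elf1, Ets1 and Ets2. They were covered by 12 probe sets. Their expression was compared between terminal end buds, the growing tips of pubertal mammary ducts, with and without deletion of Ovol2, a zinc finger gene known to hold back the epithelial-mesenchymal transition. There were 2 control and 2 knockout arrays. In the sample characteristics the controls were Ovol2flox/+, while the protocol allows Ovol2flox/+ or Ovol2flox/+;K14-Cre for them, and the knockouts were Ovol2flox/-;K14-Cre. All mice were female, of strain C57/BL6 and carried a floxed Ovol2 allele, and littermates shared cages. The labels give an age of 4.5 weeks and the series text gives 24 to 25 days. Each control array pooled 2 mice and each knockout array 3, so pool size and genotype cannot be told apart. The keratin 14 promoter that drives Cre is known to be active in basal epithelium and skin, whereas the null allele was present in every cell of the knockout mice.

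In the mammary gland, PEA3 factors act downstream of FGF receptors and other receptor tyrosine kinases through ERK signalling, and they are known for roles in branching and in invasion of tumour cells. Elf5 specifies the luminal progenitor and alveolar lineage and drives milk gene expression during pregnancy. Elf3, Ehf and Spdef are expressed in many epithelia, where they are linked to differentiation and secretion, while Ets1 and Ets2 are broadly expressed targets of ERK signalling, with Ets1 also prominent in endothelium and lymphocytes.

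Values below are deposited probe set signals on a linear scale, or log2(signal + 16) after quantile normalization where log2 is stated. A gene was called changed at an adjusted p under 0.05 (limma, Benjamini-Hochberg adjustment over 11963 tested genes), the error after ± is the SE of a log2 difference unless SD is written, and n = 2 arrays per group throughout. All 10 ETS factors passed the filter on low signals (log2 7.97). All 15 luminal markers and all 13 basal markers on the array passed the filter. All 12 fibroblast and all 10 endothelial markers on the array passed too, so passing it does not mark out epithelium. Krt8, a luminal keratin gene, had signals of 12426 and 12658 in controls against 12680 and 12181 in knockouts. Ovol2 itself read 250 and 291 in controls against 211 and 204 in knockouts (log2 difference -0.39 ± 0.16, limma adjusted p = 0.17). Whether its probes fall inside the deleted exons is unknown here, so this value does not measure the deletion. The knockout arrays also carried more signal of fibroblast markers. The summed signal of 12 fibroblast markers was 11714 to 12455 in the controls and 26756 to 32306 in the knockouts, and all 12 rose, with a median log2 difference of 1.24. For 1 of them, Lama2, both control values lay under the filter level, so it was tested only through its knockout signal. In such bulk tissue, more or fewer cells of a type and more or less RNA per cell cannot be told apart. Nor can the cells in which a gene rose or fell.

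Of the 10 ETS factors 1 rose, Etv1, and 1 fell, Etv4, both of the PEA3 group, and the other 8 did not pass the threshold. Across all tested genes 6.29% were called higher and 4.45% lower, so the number of ETS factors called was close to the background in each direction. The median log2 difference of the 10 genes was -0.02, the same as that of all tested genes (-0.02). At an unadjusted p under 0.05 there were 4 ETS factors (Etv1, Etv4, Ets1 and Ets2), against 25.5% of all tested genes. After normalization both knockout arrays lay above both control arrays for 3 ETS factors (Etv1, Spdef and Ets2) and below them for 3 (Etv4, Etv5 and Ets1), against 26.4% and 29.9% of all tested genes.

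**Figure D1:**
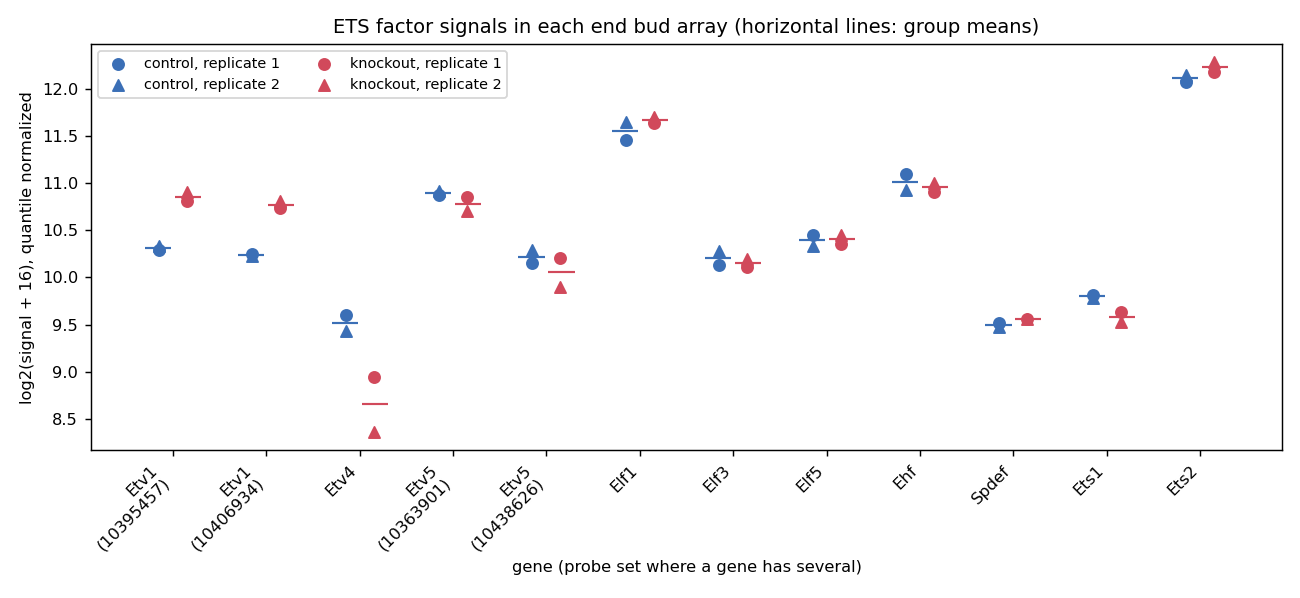
Signals of the 12 ETS factor probe sets in each array, as log2(signal + 16) after quantile normalization. Circles are replicate 1 and triangles replicate 2, blue for control and red for knockout, and short lines are group means. The control and knockout points stand well apart for both Etv1 probe sets (higher in the knockout) and for Etv4 (lower in the knockout), and lie close together for the other genes.

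Etv1 is a PEA3 factor also known from neurons and from gastrointestinal pacemaker cells. Its probe set 10395457 had signals of 1207 and 1290 in controls against 1829 and 1867 in knockouts. Both knockout arrays lay above both control arrays, and the means were 1248 ± 58.9 (SD, n = 2) and 1848 ± 27.0 (SD, n = 2). Etv1 rose 1.46-fold (log2 difference 0.54 ± 0.06, 95% CI 0.41 to 0.68, limma adjusted p = 0.00112). It passed under each of the 15 other fits, with a limma adjusted p no higher than 0.0428. Several of these fits took the variance as known, so passing in them says little about stability. The log2 difference of Etv1 was 0.50 to 0.59 when any 1 array was left out. A second Etv1 probe set, 10406934, read 1169 and 1193 in controls against 1731 and 1756 in knockouts. Tested by itself among all probe sets with 1 gene symbol, it gave a log2 difference of 0.54 ± 0.06 (limma adjusted p = 0.00137). The gene is on chromosome 12 in the RefSeq GRCm38.p6 table, as are all 8 named probe sets with the nearest numbers to 10395457, whereas all 6 named neighbours of 10406934 in the numbering belong to genes on chromosome 13. Where the probes of 10406934 lie is not given in the sources used here, and it may share sequence with the first, so the pair is not counted as independent evidence. Besides the fibroblast markers, 2 of 5 nerve and Schwann markers rose in these arrays, Scn7a and Ncam1. The summed signal of the 5 was 3209 to 3343 in controls and 4463 to 5046 in knockouts (lowest signal of any marker 311). The other 3 did not pass, with log2 differences of 0.14 for Mbp, -0.04 for S100b and -0.23 for Sox10. The part of fibroblasts or of nerve and Schwann cells in the Etv1 value was not tested.

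Etv4, the founding PEA3 factor and a known target of FGF signalling in branching organs, went the other way. Its probe set 10391490 had signals of 734 and 680 in controls against 494 and 321 in knockouts. Both knockout arrays lay below both controls, but they stood further from each other than the controls did, with group means of 707 ± 38.3 (SD, n = 2) and 407 ± 122 (SD, n = 2). Etv4 fell 1.81-fold (log2 difference -0.86 ± 0.17, 95% CI -1.23 to -0.49, limma adjusted p = 0.0113). The size rested in part on knockout replicate 2, at -0.57 without it and -1.15 without knockout replicate 1. The call was lost without control replicate 1 (log2 difference -0.78) and with a robust prior (limma adjusted p = 0.0565). It was also lost without the mean-variance trend (limma adjusted p = 0.0834), and with a filter at the 60th percentile Etv4 was not tested. Several of the fits in which Etv4 passed took the variance as known, so passing in them says little about stability. In the same arrays the summed signal of the luminal markers was 73794 to 76044 in the controls and 79615 to 80374 in the knockouts. That of the basal markers was 31912 to 34261 in the controls and 36599 to 43111 in the knockouts. The basal markers went both ways, as 6 of the 13 rose and 3 fell (Trp63, Itgb4 and Snai2). The part of epithelial or stromal cells in the Etv4 value was not tested. The 95% intervals of Etv1 and Etv4 lay on opposite sides of 0, and median centring, or no further scaling of the deposited signals, left both directions as they were.

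Etv5, the third PEA3 factor, did not follow either. By the rule that takes the brighter probe set it was represented by 10363901, with signals of 1826 and 1928 in controls against 1874 and 1634 in knockouts, and the groups overlapped on this scale, though not after normalization. Its log2 difference was -0.11 ± 0.06 (95% CI -0.26 to 0.03, limma adjusted p = 0.313), and leaving out 1 array gave values between -0.18 (knockout replicate 1 omitted) and -0.043 (knockout replicate 2 omitted). All 8 neighbours of this probe set in the numbering belong to genes on chromosome 10, while Etv5 is on chromosome 16. The other probe set, 10438626, whose 7 named neighbours are all on chromosome 16, read 1091 and 1250 in controls against 1210 and 926 in knockouts. It gave a log2 difference of -0.16 ± 0.10 (95% CI -0.39 to 0.06, limma adjusted p = 0.349), so neither probe set passed. Both intervals lay between the values measured for Etv4 and Etv1.

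**Figure D2:**
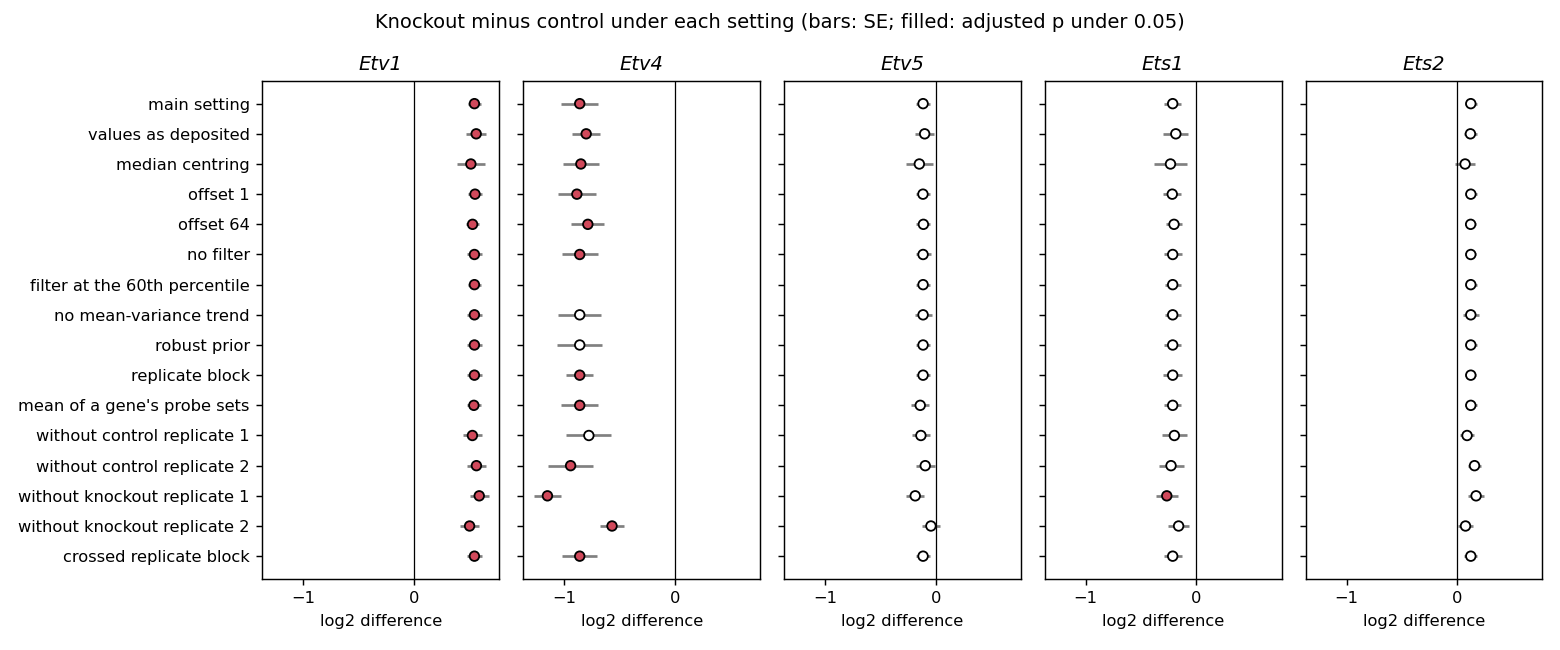
Log2 difference, knockout minus control, with its SE, for 5 ETS factors under the main setting and 15 alternatives, filled where the adjusted p was under 0.05. Etv1 is filled in every row, and Etv4 is open in 3 rows and missing in 1, where it was left out by the stricter filter.

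The promoter window of Etv1 is shown as that of a called PEA3 gene. That of Etv5, which was not called, is shown because it holds CCGTTA, and that of Elf5 because it holds repeats of the CACCTG E-box. CACCTG is known to be bound by the repressor Zeb1. Each window runs from 250 bases before to 50 bases after a RefSeq start, along the gene's strand, in GRCm38.p6. Windows were found for 7 of the 10 genes, 11 windows in all. Not matched were Etv4, Ehf and Ets1. Capitals mark GGAA or its reverse complement TTCC for Etv1 (chr12:38779832-38780131, plus strand), CCGTTA, a motif reported for Ovo proteins, for Etv5 (chr16:22439521-22439820, minus strand), and CACCTG for Elf5 (chr2:103411848-103412147, plus strand).
Etv1: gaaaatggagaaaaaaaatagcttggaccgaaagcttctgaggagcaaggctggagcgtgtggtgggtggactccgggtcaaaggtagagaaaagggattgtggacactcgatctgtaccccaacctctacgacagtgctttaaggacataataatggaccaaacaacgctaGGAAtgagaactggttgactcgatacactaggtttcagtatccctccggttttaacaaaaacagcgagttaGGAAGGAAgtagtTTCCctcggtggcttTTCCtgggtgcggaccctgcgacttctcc
Etv5: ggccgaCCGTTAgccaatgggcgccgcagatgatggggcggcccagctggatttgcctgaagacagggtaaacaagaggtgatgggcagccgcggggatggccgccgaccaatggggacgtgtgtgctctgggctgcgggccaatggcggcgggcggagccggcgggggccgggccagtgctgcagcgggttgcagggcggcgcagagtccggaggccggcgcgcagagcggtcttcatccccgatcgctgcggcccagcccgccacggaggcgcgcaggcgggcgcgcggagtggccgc
Elf5: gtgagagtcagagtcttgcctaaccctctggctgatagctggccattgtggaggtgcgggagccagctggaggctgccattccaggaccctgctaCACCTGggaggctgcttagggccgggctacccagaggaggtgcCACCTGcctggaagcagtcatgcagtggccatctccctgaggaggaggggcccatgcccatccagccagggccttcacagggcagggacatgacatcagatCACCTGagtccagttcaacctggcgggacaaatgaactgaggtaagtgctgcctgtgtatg

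The Etv1 window shown held 5 matches to the ETS core, all within 78 bases of the start, and 28.6% of the 32851 promoter windows in the table held at least 5. The second Etv1 window held 1, and the second Etv5 window held 6. Across the 11 windows of these genes the count ran from 0, in the Etv5 window shown, to 7, in that of Spdef. The Etv5 window shown held 1 CCGTTA on the strand shown, 244 bases before the start, and 2.76% of all windows held that motif or its reverse complement TAACGG. No other window of these genes held it. As CCGTTA was marked in the window that held it, that share too is a description only. The Elf5 window shown held 3 matches to CACCTG, at 155, 112 and 11 bases before the start, and 0.365% of all windows held at least 3 matches to CACCTG or CAGGTG. As this window was chosen for its matches, that share is a description only. The second Elf5 window held 1. Of the 11 windows of these genes 4 held at least 1 match (1 of Elf1, 1 of Elf3 and both of Elf5), against 20.2% of all windows. Both strands were searched, no motif contains another, and a match describes the letters only.

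The ETS factors of epithelium did not pass the threshold, and their intervals were narrow. Elf5, the alveolar lineage factor, had signals of 1352 and 1294 in controls against 1337 and 1363 in knockouts. The groups overlapped, and the log2 difference was 0.01 ± 0.07 (95% CI -0.15 to 0.17, limma adjusted p = 0.941), with its sign turned by median centring (-0.02). In the same arrays Zeb1, a repressor of epithelial genes, read 149 and 217 in controls against 754 and 817 in knockouts. Both of its control values lay under the filter level, so it was tested only through its knockout signal, and no test of it is given here.

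Elf3, a factor of epithelial differentiation, read 1071 and 1239 in controls against 1133 and 1138 in knockouts, with both knockouts between the controls. Its log2 difference was -0.05 ± 0.07 (95% CI -0.22 to 0.12). Ehf, its relative, read 2140 and 1958 in controls against 1951 and 2002 in knockouts, also overlapping, with a log2 difference of -0.06 ± 0.07 (95% CI -0.21 to 0.09). Spdef, linked to secretory and hormone-responsive luminal cells, read 693 and 698 in controls against 772 and 733 in knockouts. Both knockout arrays lay above both controls and the log2 difference of 0.07 ± 0.08 (95% CI -0.10 to 0.25) did not pass (limma adjusted p = 0.617).

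Elf1, a broadly expressed factor, read 2788 and 3230 in controls against 3210 and 3263 in knockouts, and the groups overlapped. Its log2 difference was 0.11 ± 0.07 (95% CI -0.03 to 0.26, limma adjusted p = 0.316), and it was 0.023 without control replicate 1 and 0.21 without control replicate 2. Ets2, a broadly expressed ERK target, read 4293 and 4499 in controls against 4669 and 4882 in knockouts. Both knockouts lay above both controls, with a log2 difference of 0.12 ± 0.05 (95% CI 0.0030 to 0.24, limma adjusted p = 0.184), and it ranged from 0.075 to 0.17 when 1 array was left out, lowest without knockout replicate 2.

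Ets1 read 862 and 877 in controls against 811 and 716 in knockouts. Both knockout arrays lay below both controls, and the log2 difference was -0.21 ± 0.08 (95% CI -0.39 to -0.04, limma adjusted p = 0.113). It passed without knockout replicate 1 (log2 difference -0.27, limma adjusted p = 0.0391), in a fit that takes the variance as known, with adjusted p from 0.0391 to 0.523 over its alternatives. Markers of the cell types in which Ets1 is prominent moved in both directions in these arrays. The summed signal of 9 lymphocyte markers was 2246 to 2787 in the controls and 1336 to 1355 in the knockouts. Of the 3 that could be tested 2 fell, Cd79b and Ccr7. Both knockout values of Cd79b lay under the filter level, so it was tested only through its control signal. The summed signal of 10 endothelial markers was 3641 to 4641 in the controls and 5873 to 7240 in the knockouts. Of the 10, 5 rose, of which 1, Kdr, was tested only through its knockout signal. No marker of either list was at 0 in any array, and the lowest signals were 36.4 and 181. Their part in the Ets1 value was not tested.

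**Figure D3:**
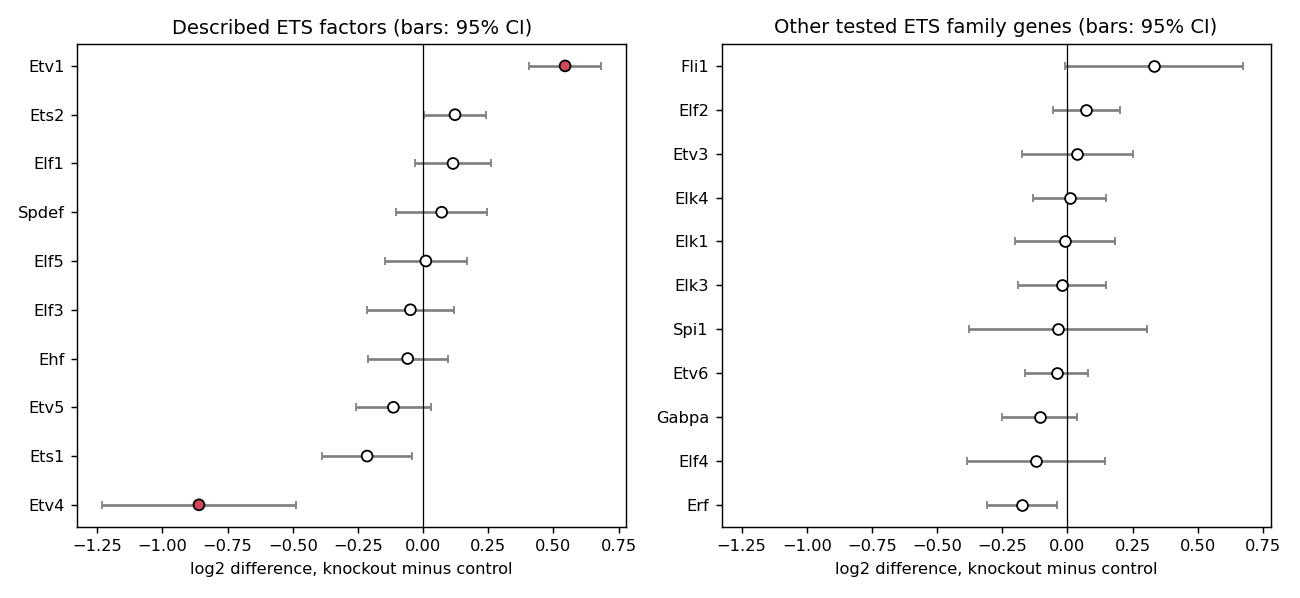
Log2 difference, knockout minus control, with its 95% confidence interval, for the 10 ETS factors described (left) and the 11 other ETS family genes that passed the filter (right). Filled points passed the threshold. Etv1 at 0.54 and Etv4 at -0.86 lie apart from the rest, which range from -0.21 to 0.33.

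The remaining ETS family showed no calls. Of 16 other family genes listed, 15 were on the array and 11 were tested, of which 0 passed (limma) and 1 had an unadjusted p under 0.05. Their median log2 difference was -0.02, in a range from -0.17 to 0.33. The highest was Fli1, an endothelial and blood cell factor, which read 238 and 289 in controls against 327 and 362 in knockouts (log2 difference 0.33 ± 0.15, limma adjusted p = 0.207). Its relative Erg, under the filter and not tested, read 171 and 179 in controls against 194 and 220 in knockouts. Spi1, which encodes the myeloid factor PU.1, had a log2 difference of -0.04 ± 0.15. Its sign turned in the values as deposited but not with median centring.

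The PEA3 group lies downstream of FGF receptors, and members of that pathway went both ways. Of 11 FGF ligand and receptor genes on the array 8 were tested, of which 3 rose, 1 fell and 4 did not pass, with a median log2 difference of 0.19. Among those that rose, the ligand gene Fgf2 read 211 and 220 in controls against 465 and 483 in knockouts, and since both control values lay under the filter level it was tested only through its knockout signal. The ligand gene Fgf1 rose by 0.44 ± 0.09 and the receptor gene Fgfr1 by 0.36 ± 0.06 on the log2 scale, whereas the receptor gene Fgfr3 fell by 0.51 ± 0.11. Fgfr2, the main epithelial FGF receptor gene of the mammary gland, read 5015 and 5342 in controls against 5403 and 5640 in knockouts (log2 difference 0.08 ± 0.06, limma adjusted p = 0.419). Fgf1 was not called with median centring, and neither Fgf1 nor Fgfr3 without control replicate 1, nor Fgfr3 without control replicate 2. Neither of these genes nor Fgfr1 passed without the mean-variance trend. The fibroblast markers given above rose in the same arrays, and their part in these values was not tested.

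Genes that ERK signalling induces as its own feedback inhibitors did not pass the threshold. Of 10 tested (the Spry and Spred genes, Dusp4, Dusp5, Dusp6 and Il17rd) 0 were called (limma). Their median log2 difference was 0.06, in a range from -0.04 to 0.29. An unadjusted p under 0.05 was found for 3 of the 10, against 25.5% of all tested genes. All 3 were higher, with log2 differences of 0.29 ± 0.11 for Dusp5, 0.20 ± 0.06 for Dusp4 and 0.19 ± 0.08 for Spry1. Dusp6, the ERK phosphatase gene, read 3761 and 4476 in controls against 4074 and 4343 in knockouts, both knockouts between the controls. The log2 difference was 0.03 ± 0.08 for Dusp6 (95% CI -0.14 to 0.21) and -0.04 ± 0.09 for Spry4, and both turned sign with another scaling. Of 7 other tested receptor tyrosine kinase and ligand genes, 1 rose, the EGF receptor gene Egfr, by 0.42 ± 0.08 on the log2 scale (limma adjusted p = 0.0128), a call lost with median centring, without control replicate 1 and without the trend.

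Genes described in other systems as targets of PEA3 factors had no common direction. Of 15 on the array 10 were tested, of which 2 rose, 1 fell and 7 did not pass, with a median log2 difference of 0.02. The 5 under the filter were not tested. Their log2 differences were 1.07 for Mmp3, 0.98 for Mmp13, -0.24 for Mmp7, -0.12 for Mmp9 and 0.00014 for Ret. The matrix metalloprotease gene Mmp2 rose from 1007 and 1065 to 2888 and 3630, and Vim, the vimentin gene, rose 1.37-fold, both known stromal genes. The cyclin gene Ccnd2 fell from control signals of 3483 and 3588 to knockout signals of 2717 and 2095 (log2 difference -0.57 ± 0.09, limma adjusted p = 0.0054). Neither Vim nor Ccnd2 passed without the trend.

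Genes around Elf5 also went both ways, while Elf5 itself had nearly the same signal in the 4 arrays. Of 9 on the array 7 were tested, of which 1 rose, 2 fell and 4 did not pass. Stat5a, the prolactin signal transducer gene, read 1700 and 1976 in controls against 3101 and 2387 in knockouts (log2 difference 0.56 ± 0.10, limma adjusted p = 0.00933), and it was not called with a robust prior or without the trend. The casein gene Csn1s1 fell 2.14-fold, from 466 and 551 to 348 and 162, with -0.56 on the log2 scale without knockout replicate 2. That call was lost with a robust prior, without the trend and without either control array. Csn2, another casein gene, lay under the filter. The casein gene Csn3 was tested and did not pass (log2 difference 0.04 ± 0.05, limma adjusted p = 0.625). Snai2, a basal gene that Elf5 is known to repress, fell by 0.39 ± 0.09 on the log2 scale, a call lost without control replicate 1 and without the trend, and at -0.24 without knockout replicate 1. Of 5 tested genes linked to Spdef, that gene included, 1 rose, the secretory pathway regulator gene Creb3l4 (0.36 ± 0.08, limma adjusted p = 0.0268), a call lost with median centring, without the trend and without either control array. The luminal factor gene Foxa1 had a log2 difference of -0.01 ± 0.05, which turned sign in the values as deposited but not with median centring. For Gata3, another luminal factor gene, it was 0.15 ± 0.05 (limma adjusted p = 0.113).

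**Figure D4:**
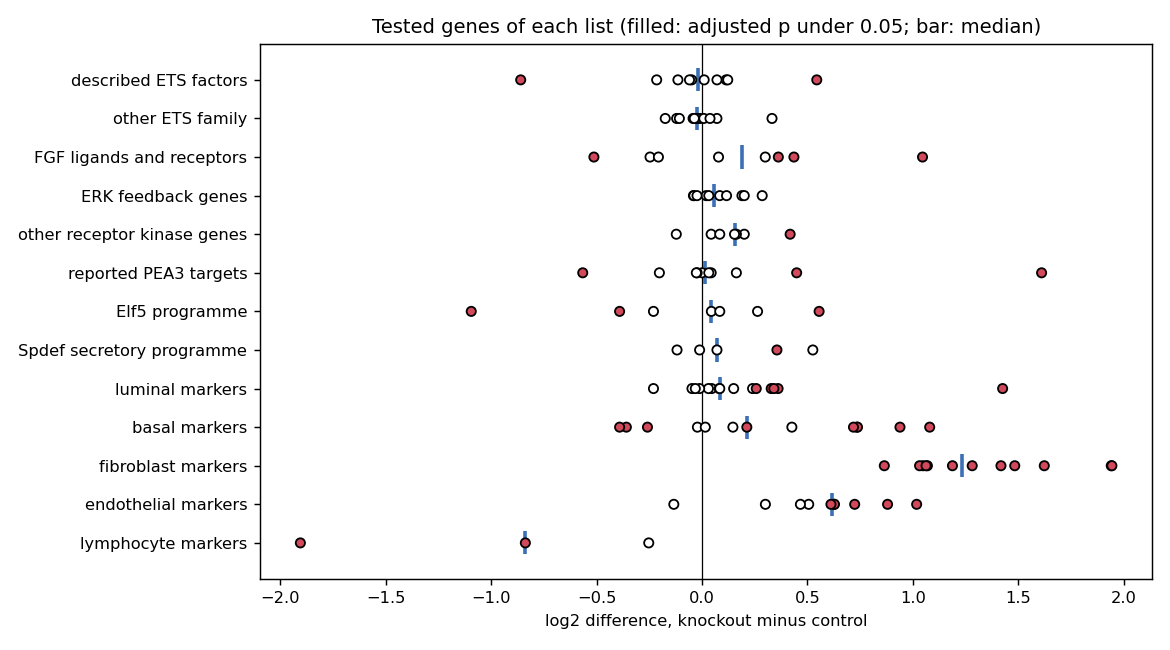
Log2 differences, knockout minus control, of the tested genes of 13 gene lists. Each point is a gene, filled where it passed the threshold, and the blue bar is the list median. The ETS lists and the ERK feedback list centre near 0, at -0.02, -0.02 and 0.06, while the fibroblast list centres at 1.24.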

How the data were processed

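RNA of 4 pools of terminal end buds was purified by Trizol and column, amplified with tagged random primers and hybridised with biotin label to 1-colour Affymetrix arrays, per the labels' protocols. The deposited table holds 1 linear signal intensity for each of 35556 probe sets and array, made by the authors with Affymetrix Expression Console 1.1.1 and PLIER 2.0, per the submitters' processing notes; its settings and the genome build are not stated in the labels. Names came from the platform annotation, with 21789 probe sets of 1 gene symbol, 1621 of several and 12146 not listed, and 21698 of the first matched RefSeq (GRCm38.p6) by Entrez identifier. Promoter sequences are RefSeq's.

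Signals were taken as log2(signal + 16) and quantile normalized, the brightest probe set stood for each of 19938 genes, and genes under the 40th percentile of the mean were left out, which left 11963. Groups were compared with limma 3.58.1 in R 4.3.3 (lmFit and trended eBayes, two-sided tests, Benjamini-Hochberg adjustment). The model was tested on simulated data. Precision is limited by the number of arrays; no detection calls were used, so folds against dim signals may understate a change. The labels call the arrays biological replicates, each a pool.

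The ETS factors and gene lists were chosen with earlier results of these data known. Named were all 10 factors, up to 4 called genes with the largest change per pathway list, and 15 reference genes set by name. Alternatives varied normalization, offset, filter, variance prior, probe set, replicate block and left-out arrays.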

Additional observations from a re-analysis of the deposited data

How the results depend on the processing

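Etv1 was called in every alternative run, and its second probe set was called too. The count of ETS factors called lower, 1 (Etv4), was 0 without control replicate 1, without the mean-variance trend, with a robust prior, and with a filter at the 60th percentile, which left Etv4 untested; it was 2 without knockout replicate 1, which added Ets1, so it ranged from 0 to 2 when 1 array was left out. The count of all genes called higher (753) and lower (532) became 480 and 273 with median centring, and 143 and 45 without the trend. Leaving out 1 array gave 320 to 1168 higher and 156 to 1179 lower, the low ends without control replicate 1 and the high ends without knockout replicate 1. Arrays with the same replicate number did not deviate together (r = -0.196 across genes, which are not independent replicates), so the numbers were not taken as pairs; with the replicate block 1170 genes were called higher and 1076 lower, and with the crossed pairing, chosen after seeing the data, 715 and 488. The values as deposited, median centring, the replicate block and the fits without either knockout array took the variance as known from the trend, so their calls say little about stability.

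Signs of values not called turned as follows. The log2 difference became -0.019 for Elf5, -0.012 for Dusp6 and -0.061 for Krt8 with median centring. It became -0.013 for Krt8, 0.0012 for Spry4, 0.014 for Spi1 and 0.0020 for Foxa1 in the values as deposited. With 1 array left out, the range was -0.12 to 0.026 for Elf3, -0.049 to 0.071 for Elf5, -0.14 to 0.022 for Ehf, -0.091 to 0.16 for Dusp6, -0.12 to 0.043 for Spry4, -0.16 to 0.090 for Spi1 and -0.066 to 0.044 for Foxa1. The called genes Fgfr3, Fgf1, Fgfr1, Egfr, Ccnd2, Vim, Csn1s1, Stat5a, Snai2 and Creb3l4 did not pass without the trend, while Etv1 and Mmp2 did. The causes were not tested.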

Other observations

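Krt14, whose promoter drives Cre, read 2205 and 2556 in controls against 2660 and 3907 in knockouts (log2 difference 0.43 ± 0.15, limma adjusted p = 0.0993). Leaving out knockout replicate 2 gave 0.14, and leaving out replicate 1 gave 0.72. The same array, knockout replicate 2, also had the lower Etv4 signal of the 2 knockouts and the higher summed signal of fibroblast markers (32306 against 26756) and basal markers (43111 against 36599).

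Lists of cell types with fewer markers gave these counts. Of 4 tested smooth muscle and pericyte markers 3 rose. Among 5 tested adipocyte markers 4 rose (Fabp4, Pparg, Lpl and Cd36), while Plin1 had a log2 difference of -0.08. The 8 adipocyte markers on the array included Adipoq, Cidec and Lep, whose signals were too low to test. Log2 differences of these 3 were 0.11, -0.02 and 0.02. Of 5 nerve and Schwann markers, a setting in which Etv1 is also known, 2 rose (median log2 difference 0.14). Of 6 macrophage markers 1 rose (Cd14, which is also counted among the luminal markers) and 1 fell (Lyz2). Of 15 luminal markers 5 rose and 0 fell, and of 13 basal markers 6 rose and 3 fell. Of 3 epidermis markers 0 passed (limma), with 0 at an unadjusted p under 0.05. Their part in the values of Etv1 and Etv4 was not tested.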
